A study of Mus musculus with 8 samples.

Results

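Shelterin and telomerase are the protein complexes that cap and extend chromosome ends, and 10 of their genes were followed here in mouse bone marrow progenitors. The genes were Terf1, Terf2, Terf2ip, Tinf2, Acd, Pot1a and Pot1b for shelterin, Tert and Dkc1 for telomerase, and Rtel1, a helicase that acts at telomeres. Members were taken by name only. All probe sets to which the array's annotation gave exactly 1 gene symbol, and that symbol one of the 10, were kept, which gave 26 probe sets of 34945 single-symbol probe sets. A probe set entered the tests where its signal reached 50 on at least 2 of the 8 arrays, and 14 of the 26 did so, against 14743 of the 34945. These 14 covered 8 genes. Neither Tert (2 probe sets) nor Pot1b (1 probe set) had one in the tests, and all 12 probe sets left out of the tests are given here with their signals or the range of these.

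The tested mice were G4/G5 TERTER/ER, late generations homozygous for the ER allele of Tert and described by the labels as having short telomeres, and they were compared with G0 TERTER/+ mice, which carry 1 such allele and were the normal group. All mice were male and of a mainly C576BL/6 background, the labels' spelling. The ER allele fuses telomerase reverse transcriptase to a ligand-binding domain of the estrogen receptor, so every group carried at least 1 altered copy of a member gene. The G4/G5 group held both generations together. Age, and whether any mouse received the ligand, are not given in the sources used here. From each genotype, granulocyte-monocyte progenitors (GMP) and common myeloid progenitors (CMP) were sorted by flow cytometry. Each of the 4 groups had 2 arrays, each from a pool of 4 mice, and 5000 to 20000 cells gave the 5 to 10 ng of RNA that was labelled per array. The p-values therefore measure the spread between pools. In sorted bulk samples such as these, fewer cells of a type and less RNA per cell cannot be told apart.

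The deposited values were microarray probe-set signals on a linear scale. The median signal per array was 14.3 to 15.7 on GMP arrays and 17.4 to 18.5 on CMP arrays. On GMP arrays 31.6% to 32.7% of probe sets reached 50, against 34.2% to 35.2% on CMP arrays. Every GMP array was thus below every CMP array in both. The sort was visible in the arrays. The summed signal of 7 CMP markers was 656 to 1060 on GMP arrays against 2465 to 4878 on CMP arrays. That of 8 GMP markers was 31924 to 37145 on GMP arrays. On CMP arrays it was 25678 and 21671.5 in the G4/G5 pools against 6618 and 13508 in the G0 pools. Ly86 and Mpo overlapped the GMP arrays in G4/G5 CMP, while the others of the 8 were lower on every CMP array. Ly86 had 826 and 732 in G4/G5 CMP against 455 to 559 on GMP arrays. Mpo had 8825 and 11199 there against 8680 to 10015 on GMP arrays. The G4/G5 CMP pools, close in the sum, differed most in Fcgr3, also a sorting gate marker, and Ms4a3. Fcgr3 had 617 in pool 1 and 38.7 to 83.9 on the other CMP arrays. Ms4a3 had 2623 in pool 1 and 300 to 538 on the other CMP arrays. Of the 8, Mpo alone was higher in pool 2 than in pool 1. Markers of maturing neutrophils set some arrays apart. The summed signal of 12 such genes (of 14 listed) was 63494 in G4/G5 CMP pool 1 and 246 in pool 2, against 329 and 326 in the G0 CMP pools. In GMP it was 33296 and 36494 in the G4/G5 pools, against 1534 and 3498 in the G0 pools. No marker of that list was listed at exactly 0 on any array. The leading genotype results in CMP are therefore also given without G4/G5 CMP pool 1. The sums for other lineages were 25.6 to 112 for erythroid, 179 to 253 for B lymphoid and 70.1 to 171 for stromal and endothelial. They were 728 to 1658 for T and NK lymphoid and 412 to 1814 for macrophage and dendritic markers. Single genes made up most of 3 of these sums: Nkg7 (704 to 1623) for T and NK, Csf1r (336 to 1492) for macrophage and Cd79b (107 to 183) for B. The other T and NK markers stayed at 0.59 to 24.0. For eosinophil, basophil and mast cell markers the sum was 4231 to 5733 on GMP arrays, 7669 in G4/G5 CMP pool 1 and 1991 to 2555 on the other CMP arrays. For megakaryocyte markers it was 196 to 336 on GMP arrays, 2317 in G4/G5 CMP pool 1 and 474 to 1141 on the other CMP arrays. That pool also had the highest sums of CMP, erythroid, and stromal and endothelial markers.

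Telomeres are repeats that shorten at each division, and telomerase adds them back from its own RNA template. Shelterin coats the repeats: its duplex-binding subunits hold the complex on DNA, its bridging subunits join them to the proteins on the single-stranded overhang, and together they keep the chromosome end from being treated as a break. In people, most somatic cells have little telomerase, whereas blood stem and progenitor cells keep some, and inherited defects in several of the members cause bone marrow failure.

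Promoter windows are shown for 4 members on which the comparisons turn, Terf2, Tinf2, Pot1a and Dkc1. They run from 250 bases before to 50 after the RefSeq start in build GRCm38.p6. A window was found for 9 of the 10 members and none for Terf1. Each is written 5′ to 3′ on the gene's own strand, with matches to any of 8 short motifs in capitals.
Terf2, chr8:107096496-107096795, minus strand: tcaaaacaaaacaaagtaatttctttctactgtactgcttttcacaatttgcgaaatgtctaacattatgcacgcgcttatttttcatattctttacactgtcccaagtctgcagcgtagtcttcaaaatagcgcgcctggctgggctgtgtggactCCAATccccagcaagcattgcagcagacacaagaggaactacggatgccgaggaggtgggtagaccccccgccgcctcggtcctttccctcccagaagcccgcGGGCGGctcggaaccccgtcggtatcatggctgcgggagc
Tinf2, chr14:55681768-55682067, minus strand: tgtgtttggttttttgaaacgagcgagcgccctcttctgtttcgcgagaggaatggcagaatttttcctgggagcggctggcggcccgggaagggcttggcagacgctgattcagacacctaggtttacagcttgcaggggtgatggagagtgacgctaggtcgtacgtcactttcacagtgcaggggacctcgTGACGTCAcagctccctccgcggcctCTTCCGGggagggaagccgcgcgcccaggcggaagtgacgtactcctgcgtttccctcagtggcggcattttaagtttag
Pot1a, chr6:25809169-25809468, minus strand: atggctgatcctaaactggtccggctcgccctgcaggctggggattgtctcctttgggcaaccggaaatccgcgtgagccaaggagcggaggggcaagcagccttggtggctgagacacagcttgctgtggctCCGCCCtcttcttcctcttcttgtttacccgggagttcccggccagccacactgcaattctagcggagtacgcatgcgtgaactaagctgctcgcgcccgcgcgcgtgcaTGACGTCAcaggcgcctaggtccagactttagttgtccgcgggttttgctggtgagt
Dkc1, chrX:75095604-75095903, plus strand: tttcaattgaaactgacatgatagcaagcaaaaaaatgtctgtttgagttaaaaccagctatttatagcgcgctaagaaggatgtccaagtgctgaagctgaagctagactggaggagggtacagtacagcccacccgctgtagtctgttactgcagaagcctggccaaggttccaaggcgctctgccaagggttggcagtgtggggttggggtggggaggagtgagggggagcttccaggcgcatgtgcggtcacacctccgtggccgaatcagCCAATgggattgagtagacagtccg
The motifs were searched on both strands of 32851 windows of the same length. GGGCGG (GC box) was in 35.7% of all windows and in 6 of the 9 member windows, CCAAT in 37.4% and 4 of 9, and CCGGAAG (an ETS core) in 8.86% and 4 of 9. TGACGTCA, the palindromic cAMP response element, was in 1.79% of all windows and in those of Pot1a and Tinf2 among the members, 7 bases before the Pot1a start and 56 before the Tinf2 start. CAGGTG was in 20.2% of windows and, among members, in that of Tert. The E-box CACGTG (7.15% of windows) and the E2F motifs TTTCGCGC (0.323%) and TTTGGCGC (0.514%) were in no member window. CACGTG and TGACGTCA read the same on both strands, and the only overlapping matches were CCAAT and its reverse complement in the Pot1b window. A match describes letters in these windows and nothing about binding.

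**Figure D1:**
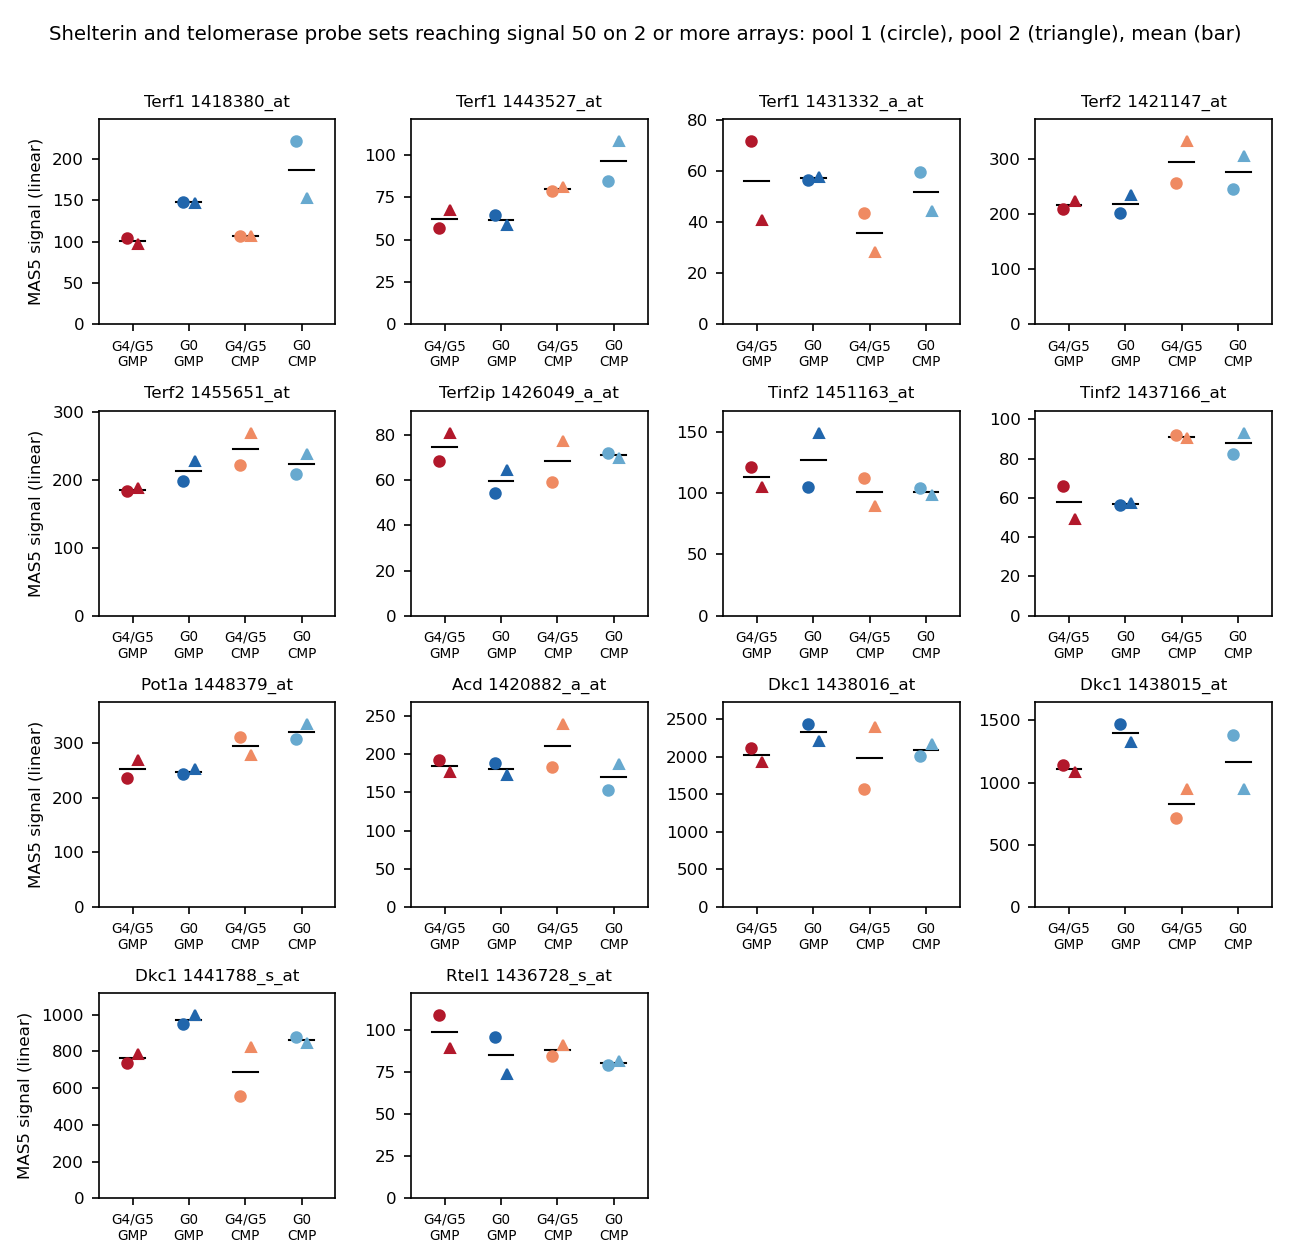
Signal (linear, from 0) of the 14 tested probe sets on every array, by group (G4/G5 GMP, G0 GMP, G4/G5 CMP, G0 CMP). Circles are pool 1, triangles pool 2 and bars the mean of the 2 pools; Terf1 1418380_at lies lower in G4/G5 than in G0 in each cell type, and Tinf2 1437166_at lies lower on all GMP than on all CMP arrays.

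Terf1 encodes the duplex repeat-binding subunit that limits telomere length and helps forks pass through telomeres. Its brightest probe set, 1418380_at, had signals of 106.9 and 107.0 in G4/G5 CMP, against 221.7 and 152.6 in G0 CMP. In GMP the signals were 105.2 and 96.9 in G4/G5, against 148.7 and 146.4 in G0. In each cell type both G4/G5 pools thus lay below both G0 pools. The difference, on the log2(signal + 10) scale used throughout, was -0.73 ± 0.19 in CMP (SE, limma, adjusted p = 0.2065) and -0.51 ± 0.19 in GMP (adjusted p = 0.6487), and averaged over the cell types it was -0.62 ± 0.14 (unadjusted p = 0.00156, adjusted p = 0.1367). None passed the threshold of 0.05 after Benjamini-Hochberg adjustment over all 14743 probe sets. Without G4/G5 CMP pool 1 the CMP difference was as large, -0.73 (adjusted p = 0.328). The mean difference was -0.62 with G4/G5 CMP pool 2 left out, as with all arrays, and -0.75 with G0 CMP pool 2 left out. In both of these fits it passed, and far more probe sets over the whole table passed too. Without G0 CMP pool 1, the brightest Terf1 array, the CMP difference was -0.48.

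The other Terf1 probe sets gave smaller differences. Probe set 1443527_at had 78.7 and 81.4 in G4/G5 CMP against 84.5 and 108.2 in G0 CMP, a difference of -0.23 ± 0.20. In GMP it had 56.8 and 67.6 in G4/G5 against 64.9 and 58.6 in G0, and the genotypes overlapped. Probe set 1431332_a_at had 43.6 and 28.4 in G4/G5 CMP against 59.8 and 44.4 in G0 CMP, a difference of -0.44 ± 0.30. In GMP it spanned 71.8 and 40.9 in G4/G5, around the 56.7 and 58.0 of G0. In CMP all 3 Terf1 probe sets were thus lower in G4/G5 with no overlap between pools, as were 18.5% of all probe sets. In GMP 1418380_at alone was, against 27.2% of all. The 3 read the same gene on the same arrays, and the nearest CMP pools of 1431332_a_at, at 43.6 and 44.4, were almost equal. The CMP differences of 1443527_at and 1431332_a_at had limma adjusted p-values of 0.643 and 0.5367.

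Terf2, the duplex binder that folds the chromosome end away from the ATM kinase and from end joining, was close to equal in the genotypes. Probe set 1421147_at had 256.1 and 332.7 in G4/G5 CMP against 245.7 and 306.8 in G0 CMP. The GMP signals were 209.7 and 223.5 in G4/G5 against 202.5 and 234.5 in G0. The pools of a genotype differed by more than the genotypes did. Probe set 1455651_at had 221.7 and 269.3 in G4/G5 CMP against 208.9 and 238.0 in G0 CMP, and the pools overlapped. On GMP arrays the signals were 183.5 and 187.1 in G4/G5, below the 197.5 and 228.2 of G0, a difference of -0.19 ± 0.16 (limma adjusted p = 0.8077). The third Terf2 probe set, 1459650_at, stayed at 2.94 to 26.2 on all 8 arrays and was not tested.

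Terf2ip, the Rap1 subunit carried by Terf2, was read by 1 tested probe set, 1426049_a_at. It had 59.4 and 77.5 in G4/G5 CMP against 72.1 and 70.0 in G0 CMP, with overlap. In GMP both G4/G5 pools, at 68.4 and 81.1, were above the G0 pools, at 54.3 and 64.6, a difference of 0.29 ± 0.21 (limma adjusted p = 0.7724). Its dim probe set 1419381_at had 34.8 and 31.3 in G4/G5 CMP against 34.9 and 34.0 in G0 CMP. The GMP arrays gave that probe set 27.6 and 15.4 in G4/G5 against 19.9 and 27.3 in G0. Probe set 1456400_at never exceeded 6.89.

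Tinf2 (TIN2) bridges the duplex binders to Acd (TPP1), which recruits telomerase and carries the single-strand binders. Tinf2 1437166_at had 92.1 and 90.3 in G4/G5 CMP against 82.6 and 93.3 in G0 CMP. Its GMP signals were 66.0 and 49.5 in G4/G5 against 56.3 and 57.7 in G0. The genotypes overlapped in both cell types, while every GMP array was below every CMP array. Tinf2 1451163_at had 112.4 and 89.6 in G4/G5 CMP against 103.8 and 98.3 in G0 CMP, and 121.0 and 104.7 in G4/G5 GMP against 105.2 and 149.3 in G0 GMP. It showed neither separation. Acd 1420882_a_at had 182.9 and 239.8 in G4/G5 CMP against 152.7 and 186.8 in G0 CMP, a difference of 0.29 ± 0.18 (limma adjusted p = 0.4988) with overlapping pools. In GMP it had 192.7 and 176.2 in G4/G5 against 188.4 and 173.1 in G0.

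Pot1a and Pot1b are the mouse pair of single-strand binders: Pot1a holds back the ATR kinase, and Pot1b limits resection of the end. Pot1a 1448379_at had 310.7 and 279.0 in G4/G5 CMP against 306.8 and 335.1 in G0 CMP. The GMP signals were 235.8 and 269.2 in G4/G5 against 243.9 and 251.8 in G0. Neither cell type separated the genotypes. The other 3 Pot1a probe sets stayed below 50, at 5.23 to 31.8. Of these, 1456369_at had 16.8 and 15.0 in G4/G5 GMP and 11.7 and 15.7 in G0 GMP, below the 26.2 and 31.8 of G4/G5 CMP and the 29.0 and 20.4 of G0 CMP.

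Pot1b 1430399_at was below 50 on every array. On GMP arrays the signals were 48.4 and 26.8 in G4/G5, against 5.83 and 8.02 in G0, so both G4/G5 pools were above both G0 pools. In CMP it had 35.2 and 25.2 in G4/G5 against 23.6 and 46.8 in G0, with overlap. In a fit with no filter on signal, the Pot1b difference in GMP was 1.46 ± 0.36 (limma adjusted p = 0.800), and that between GMP and CMP in G0 was -1.37 ± 0.36 (adjusted p = 0.0686). No dim member probe set passed in any genotype comparison of that fit. Of all 34945 probe sets, 0.00858% passed there in CMP, 0% in GMP and 0.0114% for the mean over cell types. For the difference between the cell types' genotype effects 0% passed.

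Tert, the catalytic subunit, was near the floor of the array. Probe set 1450254_at had 13.7 and 14.9 in G4/G5 CMP against 8.37 and 14.5 in G0 CMP, and 13.0 and 6.69 in G4/G5 GMP against 8.90 and 9.03 in G0 GMP. Probe set 1456941_at had 0.802 and 0.753 in G4/G5 CMP against 9.99 and 8.80 in G0 CMP. Its GMP signals were 0.481 and 0.349 in G4/G5 against 7.39 and 0.723 in G0. All 4 G4/G5 arrays were thus below 1, and 3 of the 4 G0 arrays were above 7. The difference in the fit with no filter was -0.85 ± 0.23 in CMP (limma adjusted p = 0.317) and -0.62 ± 0.16 averaged over the cell types (adjusted p = 0.286). Signals this low are under the array medians, and no source used here gives the part of the ER fusion transcript that the probes match, so the Tert signals check no genotype label.

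**Figure D2:**
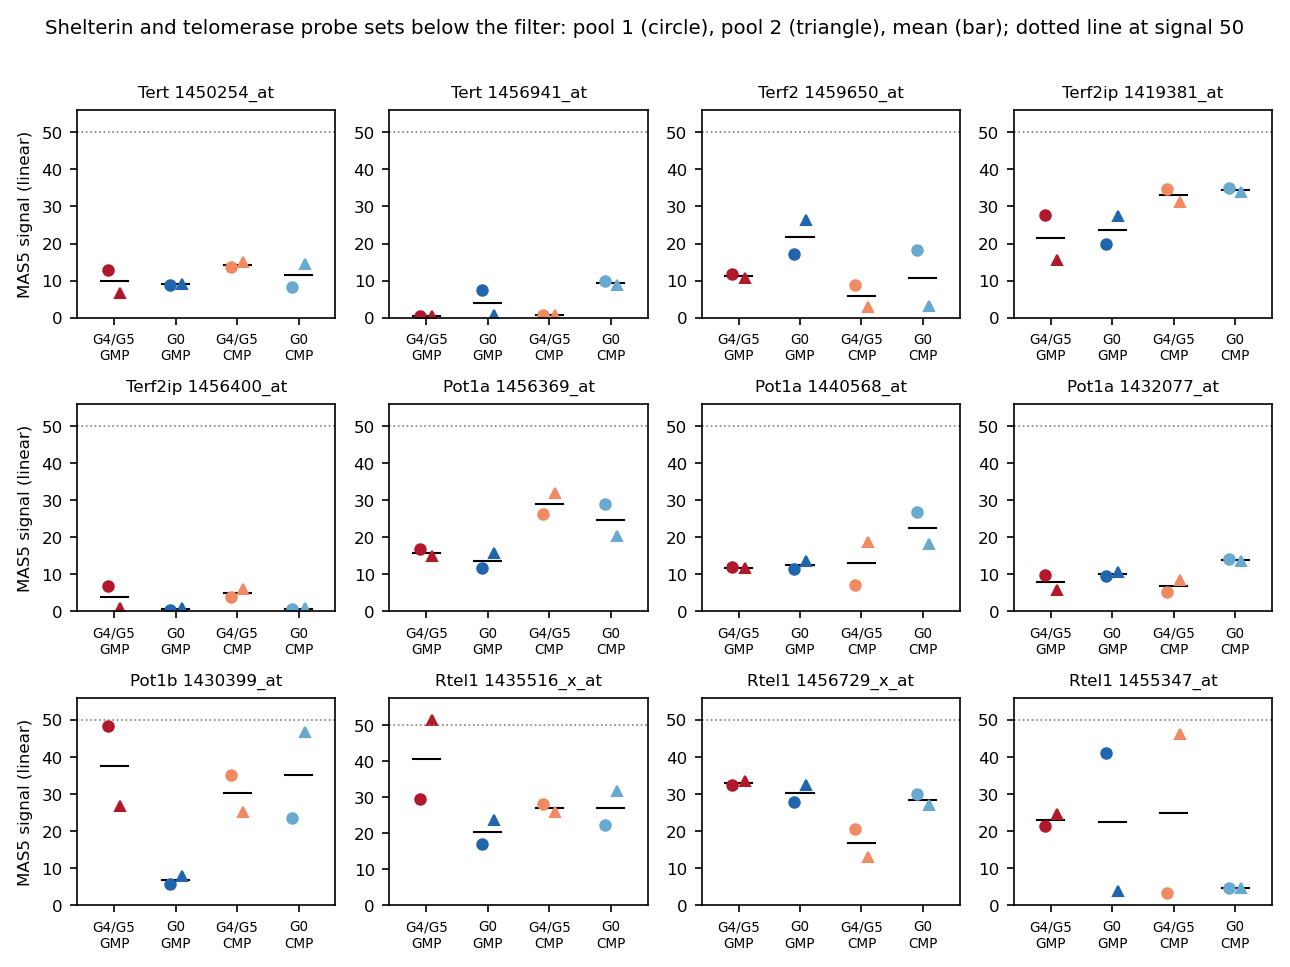
Signal (linear, from 0 to 56) of the 12 member probe sets left out of the tests, on every array, by group; circles are pool 1, triangles pool 2, bars the mean of the 2 pools, and the dotted line the signal of 50. Both Tert probe sets stay below 15 and the G0 GMP pools of Pot1b lie at 5.83 and 8.02.

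Dkc1 encodes dyskerin, the pseudouridine synthase that binds and stabilises telomerase RNA and other box H/ACA RNAs. Probe set 1438015_at had 714.7 and 947.7 in G4/G5 CMP against 1386 and 946.2 in G0 CMP. In GMP it had 1144 and 1082 in G4/G5, below the 1471 and 1329 of G0. The difference was -0.47 ± 0.20 in CMP (limma adjusted p = 0.342), -0.33 ± 0.20 in GMP (adjusted p = 0.7285) and -0.40 ± 0.14 averaged (adjusted p = 0.2178). Probe set 1441788_s_at had 555.7 and 823.9 in G4/G5 CMP against 877.1 and 846.4 in G0 CMP, and 739.1 and 784.7 in G4/G5 GMP against 947.2 and 997.1 in G0 GMP. Its pools did not overlap in either cell type. The difference was -0.34 ± 0.18 in CMP (limma adjusted p = 0.4223), -0.35 ± 0.18 in GMP (adjusted p = 0.6952) and -0.35 ± 0.13 averaged (adjusted p = 0.2252). Probe set 1438016_at had 1567 and 2398 in G4/G5 CMP, around the 2010 and 2164 of G0 CMP. The GMP signals were 2115 and 1925 in G4/G5, below the 2438 and 2212 of G0, a difference of -0.20 ± 0.19 (adjusted p = 0.8171).

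In CMP the Dkc1 differences depended on single arrays. G4/G5 CMP pool 1, the array with the summed neutrophil marker signal of 63494, was the lowest of all 8 arrays in each of the 3 Dkc1 probe sets. Without it the CMP difference was -0.27 in Dkc1 1438015_at, -0.06 in 1441788_s_at and 0.20 in 1438016_at, and the averaged differences of the first 2 were -0.30 and -0.21. Without G4/G5 CMP pool 2 it was -0.67, -0.62 and -0.41, and the averaged difference of 1441788_s_at was then -0.49. Dkc1 1441788_s_at passed in that fit, in CMP and averaged, and far more probe sets over the whole table passed too. Without G0 CMP pool 1, the brightest CMP array of Dkc1 1438015_at, the CMP difference of that probe set was -0.20, and without G0 CMP pool 2 it was -0.74. In GMP, where both G4/G5 pools carried the neutrophil marker signal, the 3 differences kept their sign whichever array was left out. The part of the neutrophil markers in these values was not tested.

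**Figure D3:**
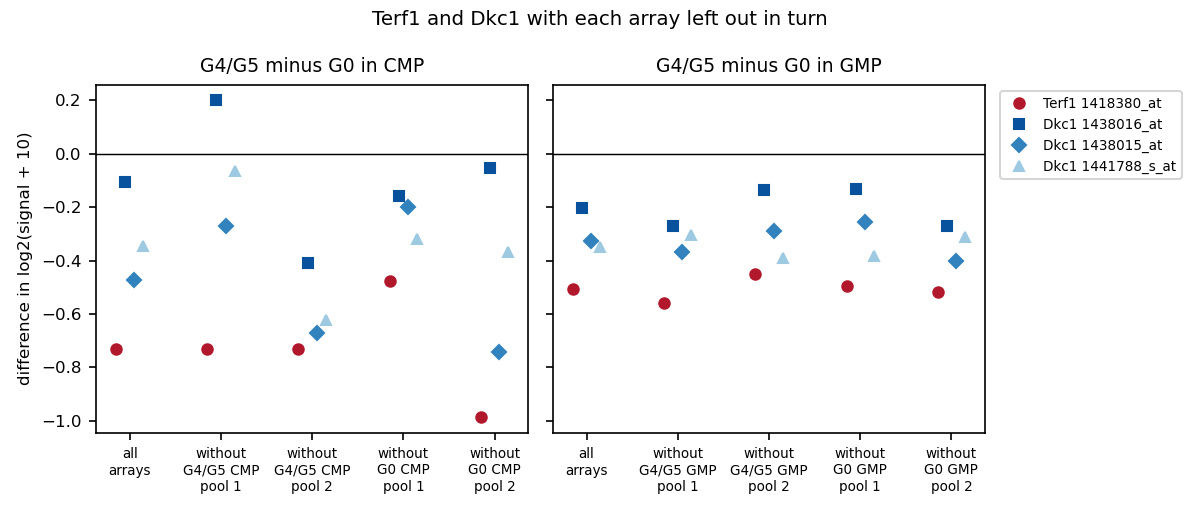
Difference in log2(signal + 10), G4/G5 minus G0, of Terf1 1418380_at and the 3 Dkc1 probe sets in CMP (left) and GMP (right) with all arrays and with each array left out in turn. Terf1 stays between -0.99 and -0.45 in both panels, while Dkc1 1438016_at is at 0.20 in CMP without G4/G5 CMP pool 1.

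Rtel1 encodes a helicase that unwinds the looped chromosome end and G-quadruplexes. Probe set 1436728_s_at had 84.5 and 91.5 in G4/G5 CMP, against 79.5 and 81.7 in G0 CMP, so the pools did not overlap but the difference was smaller than its standard error (limma adjusted p = 0.838). On GMP arrays the signals were 108.9 and 89.1 in G4/G5 against 96.1 and 74.1 in G0, a difference of 0.20 ± 0.20 (adjusted p = 0.831) with overlapping pools. Of the 3 dim Rtel1 probe sets, 1435516_x_at had 28.0 and 25.8 in G4/G5 CMP against 22.2 and 31.8 in G0 CMP. Its GMP signals were 29.5 and 51.4 in G4/G5, above the 17.01 and 23.6 of G0. Probe set 1456729_x_at had 20.6 and 13.1 in G4/G5 CMP, below the 30.0 and 27.0 of G0 CMP, and 32.4 and 33.4 in G4/G5 GMP against 27.9 and 32.4 in G0 GMP. Probe set 1455347_at had 3.45 and 46.1 in G4/G5 CMP against 4.73 and 4.67 in G0 CMP, and 21.4 and 24.6 in G4/G5 GMP against 41.1 and 3.90 in G0 GMP. The pools of G4/G5 CMP and of G0 GMP thus lay far apart. Probe sets ending in _s_at or _x_at can match transcripts of more than 1 gene.

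Counted over all members, 0 of the 14 tested probe sets passed in CMP (0.0339% of all 14743 did), 0 in GMP (0.0% of all) and 0 for the mean over cell types (0.0475% of all). At an unadjusted p under 0.05 there were 2 of 14 in CMP (14.2% of all probe sets), 1 in GMP (7.27%) and 3 for the mean (17.4%). The median difference of the 14 was -0.08 in CMP, -0.04 in GMP and -0.06 for the mean, against -0.00, -0.01 and -0.01 over all probe sets. In CMP, 4 of the 14 had both G4/G5 pools below both G0 pools (18.5% of all probe sets did) and 1 had both above (18.2%). In GMP, 5 had both below (27.2%) and 1 both above (26.5%). As a share of the 14 these were 28.6% below and 7.14% above in CMP and 35.7% below and 7.14% above in GMP. The shares count some genes more than once, on the same arrays. Those below in CMP were every Terf1 probe set and Dkc1 1441788_s_at. Those below in GMP were every Dkc1 probe set, Terf1 1418380_at and Terf2 1455651_at. The 95% interval of a member's difference within a cell type reached 0.33 to 0.68 either side, before any adjustment over probe sets. A difference smaller than its interval could not be told from 0 with 2 pools a group. A larger one could still fail the adjusted threshold, as Terf1 1418380_at did at -0.73 in CMP. The genotype effect in GMP minus that in CMP passed for 0 of 14 members (0.0% of all probe sets), 0 had an unadjusted p under 0.05 (4.17% of all), and the lowest limma adjusted p was 0.9824.

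**Figure D4:**
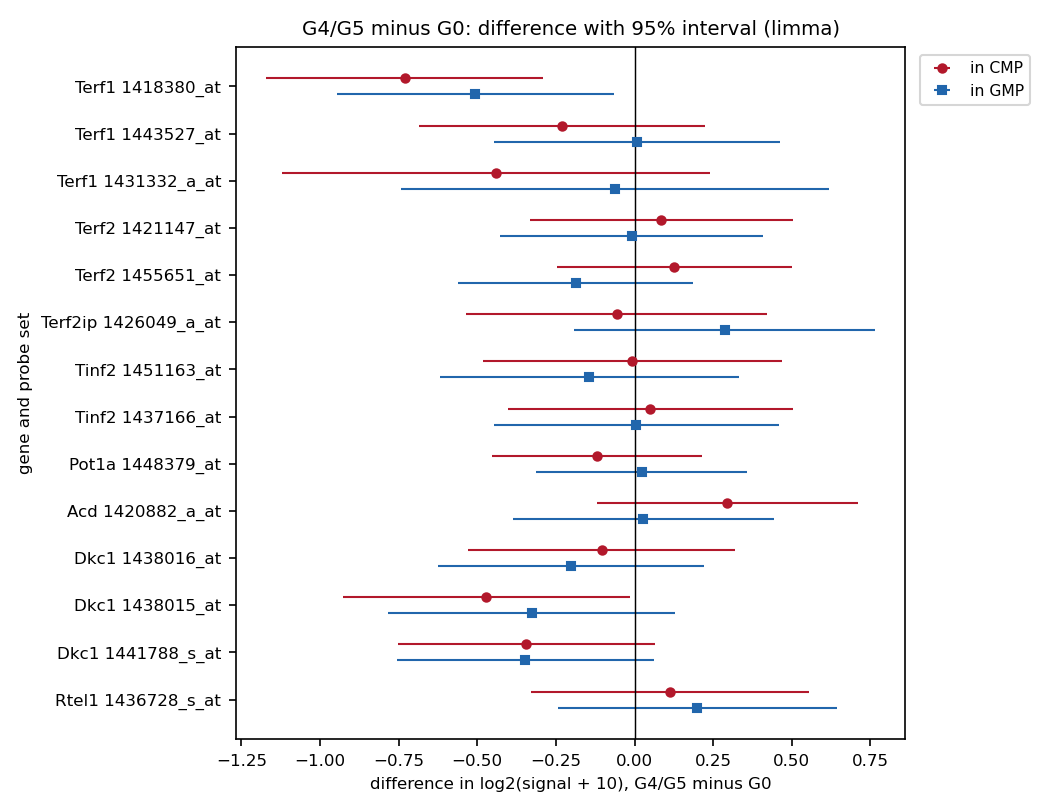
Difference in log2(signal + 10), G4/G5 minus G0, of the 14 tested probe sets in CMP (circles) and GMP (squares), with 95% intervals from limma over all 8 arrays. Terf1 1418380_at lies at -0.73 in CMP and -0.51 in GMP, and no member passed the adjusted threshold.

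Between the cell types, GMP arrays were lower than CMP arrays in 4 shelterin probe sets with no overlap among the 8 arrays: Terf1 1443527_at, Terf2 1421147_at, Tinf2 1437166_at and Pot1a 1448379_at. That is 28.6% of the 14, against 17.5% of all probe sets, and 0 of 14 were higher without overlap, against 13.5%. The cell types were also the larger contrast in the whole table, where 9.14% of probe sets passed in G4/G5 and 19.3% in G0. Within one genotype 0 of the 14 members passed, in G4/G5 as in G0, with 2 and 3 of them at an unadjusted p under 0.05 (27.9% and 36.0% of all probe sets). In G4/G5, Tinf2 1437166_at was at -0.59 ± 0.20 (limma adjusted p = 0.0976), Terf2 1421147_at at -0.42 ± 0.18 (adjusted p = 0.1823) and Terf2 1455651_at at -0.38 ± 0.16 (adjusted p = 0.1725). In G0, Terf1 1443527_at was at -0.56 ± 0.20 (limma adjusted p = 0.0804), Tinf2 1437166_at at -0.55 ± 0.20 (adjusted p = 0.0851) and Pot1a 1448379_at at -0.36 ± 0.15 (adjusted p = 0.1167).

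Averaged over the genotypes, a comparison added after the data were seen, 2 of the 14 members passed, both lower in GMP, where 34.0% of all probe sets passed in either direction. Tinf2 1437166_at fell by 0.57 ± 0.14 (limma adjusted p = 0.0163) and Terf1 1443527_at fell by 0.44 ± 0.14 (adjusted p = 0.0410). Terf2 1421147_at was at -0.37 ± 0.13 (adjusted p = 0.0571) and passed with the replicate block, which pairs same-numbered pools (adjusted p = 0.0222 within cell types and 0.0268 shared by them). Pot1a 1448379_at was at -0.29 ± 0.10 (limma adjusted p = 0.0615), and Dkc1 1438015_at was the other way, at 0.36 ± 0.14 (adjusted p = 0.0816). In Tinf2 and Terf1 the probe sets differed in sign: Tinf2 1451163_at was at 0.22 ± 0.15 and Terf1 1431332_a_at at 0.32 ± 0.21, opposite to the Tinf2 and Terf1 probe sets that passed, while the brightest Terf1 probe set, 1418380_at, was at -0.19 ± 0.14. Both tested Terf2 probe sets were negative (1455651_at at -0.22 ± 0.12) and all 3 Dkc1 probe sets positive (1438016_at at 0.11 ± 0.13 and 1441788_s_at at 0.17 ± 0.13). Both calls also depended on the arrays and the scaling. Without G4/G5 GMP pool 2, G0 GMP pool 1 or G0 GMP pool 2 neither passed, nor did either after quantile normalization (Tinf2 -0.39, limma adjusted p = 0.0675; Terf1 -0.27, adjusted p = 0.1675). Of the 8 arrays, G0 CMP pool 1 was the only one without which Terf1 passed (-0.52, limma adjusted p = 0.0284). Without G4/G5 CMP pool 1, Tinf2 was at -0.56 (adjusted p = 0.0235) and Terf1 at -0.45 (adjusted p = 0.0502). With each array centred on its median, Tinf2 passed (-0.50, limma adjusted p = 0.0257), Terf1 did not, and Dkc1 1438015_at passed as higher in GMP (0.43, adjusted p = 0.0495). That Dkc1 probe set also passed without G4/G5 CMP pool 2 (0.46, limma adjusted p = 0.0366) or G0 CMP pool 1 (0.49, adjusted p = 0.0191).

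**Figure D5:**
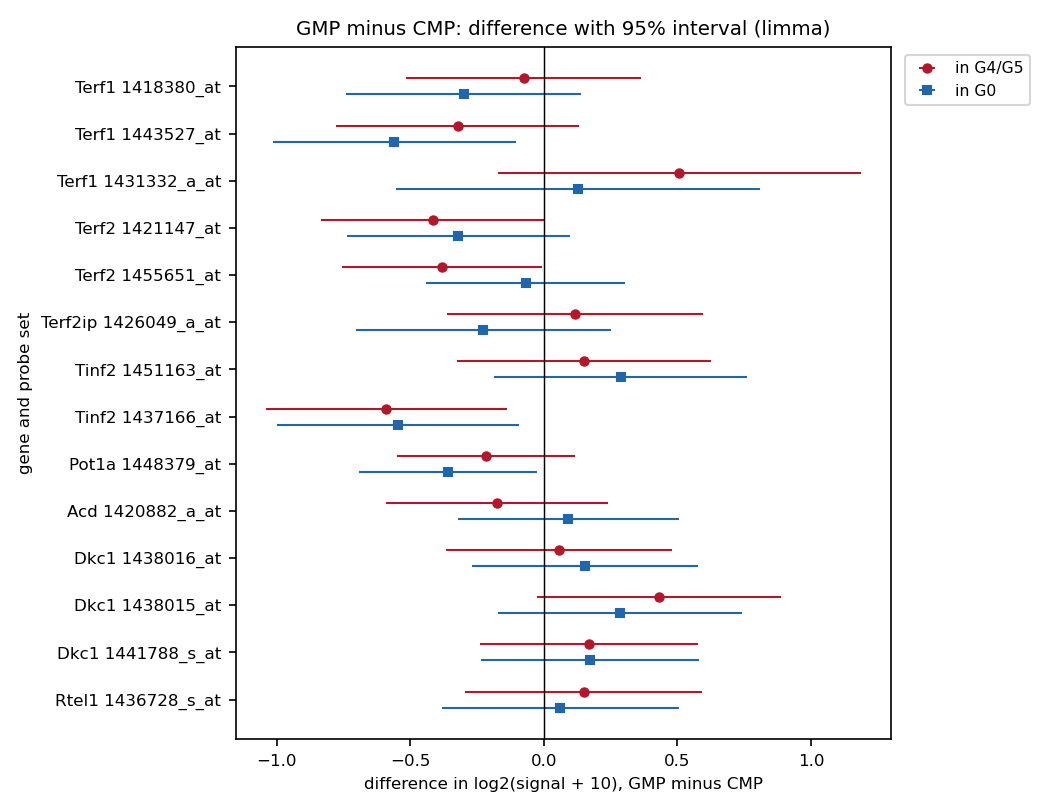
Difference in log2(signal + 10), GMP minus CMP, of the 14 tested probe sets within G4/G5 (circles) and within G0 (squares), with 95% intervals from limma over all 8 arrays. Tinf2 1437166_at lies at -0.59 and -0.55, whereas Tinf2 1451163_at lies above 0 in each genotype.

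Other genes of the same machinery were read from 3 lists. Telomerase biogenesis held 15 genes with 22 tested probe sets (17 genes listed), telomere replication with the CST complex 15 genes with 26 (16 listed), and shelterin partners and end protection 24 genes with 47 (27 listed). No probe set of any list passed in CMP, in GMP, in their mean or in the difference between them by limma. At an unadjusted p under 0.05 there were 2, 4 and 9 probe sets of the lists in CMP (9.09%, 15.4% and 19.1%, against 14.2% of all probe sets) and 1, 2 and 4 in GMP (4.55%, 7.69% and 8.51%, against 7.27%). For the mean there were 5, 4 and 13 (22.7%, 15.4% and 27.7%, against 17.4%), and for the difference 0, 0 and 3 (0%, 0% and 6.38%, against 4.17%). In CMP the lists' median differences were -0.09, -0.22 and -0.20, with 14 of 22, 22 of 26 and 36 of 47 probe sets lower in G4/G5, where the median over all was -0.00. The medians depended on the CMP arrays: without G4/G5 CMP pool 1 the medians were 0.01, -0.07 and -0.08 (0.02 over all probe sets). Without G4/G5 CMP pool 2 they were -0.26, -0.39 and -0.38 (-0.02 over all). In GMP the medians were -0.14, -0.10 and -0.11, against -0.01 over all.

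Some of these partners passed between GMP and CMP, at shares below those of all probe sets when both directions were counted. In G0, 9.09%, 3.85% and 12.8% of the lists' probe sets passed, against 19.3% of all. In G4/G5 0%, 3.85% and 2.13% passed, against 9.14% of all. The end protection calls in G0 (12.8%) were all lower in GMP. Over all 14743 probe sets 1520 passed as lower there, a smaller share, and 1324 as higher. In G0, Nhp2, a dyskerin partner in the telomerase particle, had 3024 and 2642 in GMP against 1759 and 1512.5 in CMP with probe set 1416606_s_at, and its difference of 0.79 ± 0.14 passed (limma adjusted p = 0.00828), as did that of 1416605_at (0.82 ± 0.18). The flap nuclease Fen1 (1421731_a_at) rose by 0.67 ± 0.20 (adjusted p = 0.0470). In end protection, 6 probe sets of 3 genes were lower in G0 GMP: the chromatin remodeller Atrx, whose 1420946_at had 170.3 and 138.1 in GMP against 342.4 and 393.4 in CMP (-1.21 ± 0.22, adjusted p = 0.0104), the checkpoint kinase Atr (1445091_at, -0.89 ± 0.20, adjusted p = 0.0185) and the Ku subunit Xrcc5. Xrcc5 1451968_at had 45.0 and 34.2 in GMP against 170.0 and 100.8 in CMP (-1.52 ± 0.29, limma adjusted p = 0.0109). In G4/G5 the passing probe sets were Dna2 1452210_at, a nuclease and helicase, at 0.86 ± 0.17 (limma adjusted p = 0.0202), and Atrx 1433537_at at -0.64 ± 0.16 (adjusted p = 0.0458). The 6 end protection calls in G0 were lost with either G0 GMP pool left out. More passed with G4/G5 CMP pool 2 left out, where calls over all probe sets also rose. The 2 Nhp2 calls became 0 without G0 GMP pool 1, and the Fen1 call was lost without any 1 of the 4 GMP arrays or without G0 CMP pool 2. In G4/G5 the calls of Dna2 and Atrx were lost without either G4/G5 GMP pool, and that of Atrx also without either G0 GMP pool or G4/G5 CMP pool 2. With G4/G5 CMP pool 1 left out, more end protection probe sets passed as lower in G4/G5 GMP, and more did so over all probe sets too.

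Averaged over genotypes, 3 of 22 probe sets of telomerase biogenesis passed as higher in GMP (Nhp2 with both its probe sets, and Ruvbl1, an assembly ATPase), 3 of 26 of telomere replication (Dna2, and Fen1 with 2), and 1 of 47 of end protection, while 11 of 47 passed as lower. In shares, 13.6%, 11.5% and 25.5% of the lists passed, against the 34.0% of all probe sets in either direction. Over all 14743 probe sets 2755 passed as lower and 2258 as higher. The 11 of 47 lower in end protection were a larger share than the 2755 of 14743. The count of end protection probe sets lower in GMP was lowest without G0 GMP pool 1 and highest without G4/G5 CMP pool 1. The counts higher in GMP in telomerase biogenesis and in telomere replication were highest without G4/G5 CMP pool 2. Over all probe sets the count passing also changed with the array left out. By gene, the 3 largest falls in end protection were those of Xrcc5 (-1.03 ± 0.20), Atrx (1453734_at, -0.91 ± 0.16) and Atr (1438921_at, -0.77 ± 0.21). The 1 rise was Parp1 1422503_s_at (0.42 ± 0.10), while another Parp1 probe set, 1443573_at, was lower (-0.54 ± 0.17).

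Each gene was taken by its brightest tested probe set, and the array profiles closest to those of the 3 members most variable on that basis were found among 8886 genes by the root mean square difference of log2(signal + 10) over the 8 arrays, after each profile was centred on its own mean. For Terf1 (SD 0.378 over the arrays) they were Cyp51 at 0.0955, Atad1 at 0.0991 and Tatdn1 at 0.107, where the median gene was at 0.453. Atad1 had 239 and 253 in G4/G5 CMP against 419 and 299 in G0 CMP, and 247 and 226 in G4/G5 GMP against 319 and 305 in G0 GMP, so it shared the order of the Terf1 groups. For Terf2 (SD 0.244) they were Ube2r2 at 0.0538, Stx4a at 0.0554 and Plekhm3 at 0.0578, with the median gene at 0.323. For Tinf2 (1451163_at, SD 0.204), they were Pex11g at 0.0757, Mrpl9 at 0.087 and Cenpu at 0.110, with the median gene at 0.327. Other tested probe sets varied more than those of Terf2 and Tinf2 used here, such as Dkc1 1438015_at (SD 0.344) and Tinf2 1437166_at (SD 0.321).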

How the data were processed

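The data were Affymetrix mouse whole-genome array measurements of sorted CMP and GMP. With Trizol, per the labels' protocols, RNA was extracted and labelled with biotin by a 3' in vitro transcription kit. The deposited values were probe-set signal intensities on a linear scale, which the authors computed with MAS5 and scaled to a target of 100 per array, per the series text and the submitters' processing notes. No source used here gives background settings, detection calls or a genome build.

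The deposited intensities were transformed to log2(signal + 10), a scale that understates the change of dim probe sets. The 64 control probe sets and those with several symbols (932) or none (9160) were left out. Limma 3.58.1 in R 4.3.3 fitted 1 mean per group over all 8 arrays (4 residual degrees of freedom, 4.74 prior) with an intensity trend in the empirical Bayes step, and p-values were adjusted by Benjamini-Hochberg over 14743 probe sets. The number of arrays limits the precision.

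The series text pairs G4/G5 and G0 pools by number within a cell type. Deviations of same-numbered pools from their group means correlated at 0.27 in CMP and 0.16 in GMP. Same-numbered CMP and GMP pools correlated at 0.03 in G4/G5 and 0.18 in G0. No source used here says whether CMP and GMP pools shared mice. If they did, the averaged differences and the GMP minus CMP tests rest on fewer independent units than the fit took.

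All member probe sets were named. From the 3 further lists, named genes were those passing in a comparison (where over 6 passed, the 3 largest rises and falls), and 3 genes of closest profile were named for each of the 3 members whose brightest tested probe set varied most. Members and lists, the marker lists included (CMP, GMP, sorting gate, neutrophil, erythroid, megakaryocyte, B, T and NK, macrophage, eosinophil to mast cell, stromal), were chosen with earlier results of these data known. The motifs and the comparison of cell types averaged over genotypes were chosen after the data were seen. RefSeq promoter windows and gene names came from tables of build GRCm38.p6, and 34741 probe sets matched by gene identifier. Alternatives covered scaling, pseudocount, filters, probe-set choice, variance moderation, pairing and leaving out each array. Python 3.11.15 with pandas 2.3.3 and matplotlib 3.10.9 made the tables and figures.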

Additional observations from a re-analysis of the deposited data

Results flagged for a closer look

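The dim Rtel1 probe set 1456729_x_at had G4/G5 pools on opposite sides of the G0 pools in the cell types. In CMP its signals were 20.6 and 13.1 in G4/G5, below 30.0 and 27.0 in G0. In GMP they were 32.43 and 33.41 in G4/G5, above 27.92 and 32.41 in G0, the nearest pair almost equal. In a fit with no signal filter, the genotype effect in GMP minus that in CMP was 0.63 ± 0.38 (limma adjusted p = 0.966), with -0.53 ± 0.27 in CMP and 0.10 ± 0.27 in GMP. The signal stayed below 50 on all 8 arrays.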

How the results depend on the processing

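Of 98 member differences, the 48 larger than their own standard error kept their sign under every alternative run (845 values). Of the 50 smaller ones, 38 changed sign at least once. Many of these values could not change sign. The alternatives for filters, probe-set choice, variance moderation and pairing leave a difference as it is, as does leaving out an array of a group not compared. Sign changes could come only from scaling, the pseudocount and arrays left out of the groups compared. The count of members passing stayed at 0 in GMP, in the interaction and between cell types within each genotype under every alternative. Leaving out 1 array, it ran from 0 to 1 in CMP and from 0 to 2 for the mean over cell types; the cause was not tested. The 2 members passing between cell types averaged over genotypes became 0 after quantile normalization, 1 with no filter, 1 with a filter of 100, 0 with one probe set per gene and 0 to 4 when leaving out 1 array. Neither Tinf2 1437166_at nor Terf1 1443527_at was in the fits with a filter of 100 or with one probe set per gene. Their loss there was thus fixed in advance, and the 1 passing with a filter of 100 was another member. Centring each array on its median also gave 2, of which 1 was another member. With the replicate block, 3 passed, within cell types (40.6% of all probe sets did) or shared by them (36.4%), and 0 in all other comparisons. Terf1 1418380_at in CMP then had limma adjusted p = 0.140 and 0.1734. Between cell types averaged over genotypes, 30.4% of all probe sets passed after quantile normalization, 11.8% with no filter and 38.4% with a filter of 100. With one probe set per gene 35.7% did, and with each array centred on its median 33.7%.

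Over all probe sets, the count passing in CMP was 5 and ran from 0 to 696 when leaving out 1 array, highest without G4/G5 CMP pool 2. In GMP it was 0 and reached 492 with the GMP arrays alone, where Terf1 1418380_at had adjusted p = 0.0763, and 49 when leaving out 1 array. For the mean it was 7 and ran from 2 to 1118, and for the interaction 0 to 8. Between cell types the 1348 calls in G4/G5 ran from 76 to 2225, the 2844 in G0 from 1753 to 3906 with all arrays and from 126 to 4058 leaving out 1, and the 5013 averaged from 2304 to 5984. Of the G0 calls 46.6% were higher in GMP, and 58.8% after centring each array on its median (averaged over genotypes, 45.0% and 55.7%). With 2 pools a group, member differences within a cell type under about 0.33 could not be told from 0, and averaged ones under about 0.24.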
